A study of Mus musculus with 9 samples.

Results

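The genes of the cytosolic ribosomal proteins were examined in RNA sequencing libraries of mouse lung after ventilator-induced lung injury (VILI). Members were the protein-coding genes of the GENCODE M21 annotation whose symbol is Rpl or Rps with a digit, together with Rplp0, Rplp1, Rplp2 and Rpsa. The kinases of the Rps6k family and Rpl5 were left out. The rule found 90 of the 27203 genes in the table and 218 of its 60108 transcript rows. By their symbols, 45 members encode proteins of the large subunit and 31 encode proteins of the small subunit, and these 76 are called the subunit genes below. The others were 8 paralogues (Rpl22l1, Rpl3l, Rpl10l, Rpl39l, Rpl36al, Rpl7l1, Rps27l and Rps27rt), 5 genes with a pseudogene symbol that the annotation types as coding, and Rps19bp1, which encodes a binding partner of a ribosomal protein and not a subunit.

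Male C57BL/6 mice of 6 to 8 weeks were used, with 3 mice in each of 3 groups. Control mice were intubated but not ventilated. Mice of the VILI 0 hours group were sampled at the end of 4 hours of mechanical ventilation at a high tidal volume of 20 ml/kg, and mice of the VILI 6 hours group were sampled 6 hours later. Lung RNA was sequenced, after depletion of ribosomal RNA according to the methods, so every value is a mixture over all lung cell types, and fewer cells of a type cannot be told apart from less RNA per cell. Values are FPKM (fragments scaled to transcript length and to the mapped total of the library) as the authors estimated them, summed over the transcript rows of a gene. Library sums ran from 366360 to 388459 FPKM, and the table holds no read counts, so the counting error of a value is not given here. All 7 lung markers checked (among them Sftpc, Ager and Cldn5) were above 0 in every library. Of the VILI 6 hours libraries, replicate 1 lay nearest to the controls over all genes, with quartiles of its log2 differences from the control mean at -0.20 and 0.24, against -0.62 and 0.22 in replicate 3. Leaving it out moved the number of all genes called at VILI 6 hours vs control from 136 to 4512.

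The eukaryotic ribosome joins a small subunit, which decodes the mRNA, to a large subunit, which forms the peptide bond, and each holds 1 copy of most of its proteins. Their genes are among the most transcribed in any growing cell, and their mRNAs are made in step. Most of these mRNAs start with a C followed by a run of pyrimidines, the 5′ terminal oligopyrimidine (TOP) tract, through which mTORC1 and the RNA-binding protein Larp1 set their translation and stability. Introns of many of these genes also carry small nucleolar RNAs (snoRNAs), which guide the modification of ribosomal RNA. In these annotations, 29 of the 76 subunit genes held 55 snoRNA genes on their own strand.

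The start sites of the subunit genes were read for such runs, because the tract is the feature through which this family is known to be controlled. RefSeq windows (GRCm38.p6) were matched by symbol for 56 of the 76 subunit genes. A run of at least 8 pyrimidines beginning with C, within 40 bases of the annotated start on the gene strand, was present in 48 of their 66 windows (72.7%), against 24.8% of all windows. On the opposite strand the share was 21.2%, against 28.4% of all windows. The 6 members shown have a run and the lowest unadjusted P values at VILI 0 hours vs control among genes with one. Each is a stretch of 30 bases written 5′ to 3′ on the gene strand, with the run in capitals.
Rpl37 (chr15:5116633-5116662, plus strand): cgggggtgCTTTCTCTTCCggtctctttgg
Rps9 (chr7:3704032-3704061, plus strand): ttgtCTCTCTTTgtctcgggcctgagttcg
Rpl31 (chr1:39367829-39367858, plus strand): cacaCCTCTTCCTCCTCgcctccccgtgac
Rps10 (chr17:27635222-27635251, minus strand): cacgCCCCTTCCTTTCCagcctccgcctcg
Rpl28 (chr7:4792959-4792988, plus strand): gtgtCTCTCTTTCCgtctccggccgccata
Rps12 (chr10:23787176-23787205, minus strand): ccggCCTTTTCCCCTgccgccgccgacttg
The runs of these 6 genes are 8 to 13 bases long. A run in such a window is a match of letters and not a mapped start of transcription.

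The subunit genes were strongly expressed in every library. Their mean level over the 9 libraries ran from 30.4 FPKM (Rps15a) to 570.2 FPKM (Rps29), with a median of 204 FPKM. The median was 179 FPKM for large subunit genes and 240.4 FPKM for small subunit genes. The 5 highest were Rps29, Rplp1, Rps27, Rpl41 and Rps15. Rpl41 encodes the shortest protein of the large subunit and Rplp1 a protein of the stalk that recruits elongation factors. At the other end, Rpl10l and Rpl36-ps4 were listed at 0 in every library. Rpl9-ps1 was above 0 in VILI 6 hours replicate 3 alone, at 0.0462 FPKM. Rpl39l reached at most 0.268 FPKM and Rpl3l at most 0.283 FPKM. A mean of at least 0.1 FPKM was required for a test, and 86 of the 90 members passed it. The longest annotated coding transcript had a median of 925.5 bases over the subunit genes and of 3040.5 bases over the other coding genes. They lie on 19 chromosomes, with 14 on chromosome 7 and 4 on the X.

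With the libraries as deposited, ribosomal protein mRNAs stood higher as a family by a small amount right after ventilation, less clearly so in replicate 3. In the mice sampled 6 hours later they were near the control level, a position that depended on the scaling described below. The members made up 4.32%, 4.46% and 4.68% of all FPKM in the control libraries. In the VILI 0 hours libraries the share was 5.40%, 5.19% and 4.69%, and in the VILI 6 hours libraries it was 4.20%, 4.26% and 4.69%. Of the VILI 0 hours libraries, replicates 1 and 2 lay above all 3 controls, while replicate 3 was level with control replicate 3. Means were 4.49 ± 0.18, 5.09 ± 0.36 and 4.38 ± 0.27% (SD, n = 3 each). The difference of means at VILI 0 hours vs control was 0.609 percentage points, and 0.608 when only coding genes were summed. In the sum over coding genes, VILI 0 hours replicate 3 (4.94%) was just below control replicate 3 (4.95%), so the groups did not separate fully.

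The shift was broad rather than carried by a few genes. For each library, the median over the 76 subunit genes of log2(FPKM + 0.1) minus the mean of the controls was -0.06, -0.03 and 0.09 in control replicates 1 to 3. It was 0.34, 0.27 and 0.12 at VILI 0 hours and -0.07, -0.06 and 0.09 at VILI 6 hours. Of the 76 genes, 71, 74 and 64 stood above the control mean in the 3 VILI 0 hours libraries. The corresponding counts at VILI 6 hours were 26, 25 and 58. Control replicate 3, with 64 genes above the mean, was close to VILI 0 hours replicate 3. Over all 19378 genes tested, the library medians at VILI 0 hours were -0.08, -0.04 and -0.07, on the other side of 0 from the subunit genes.

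**Figure D1:**
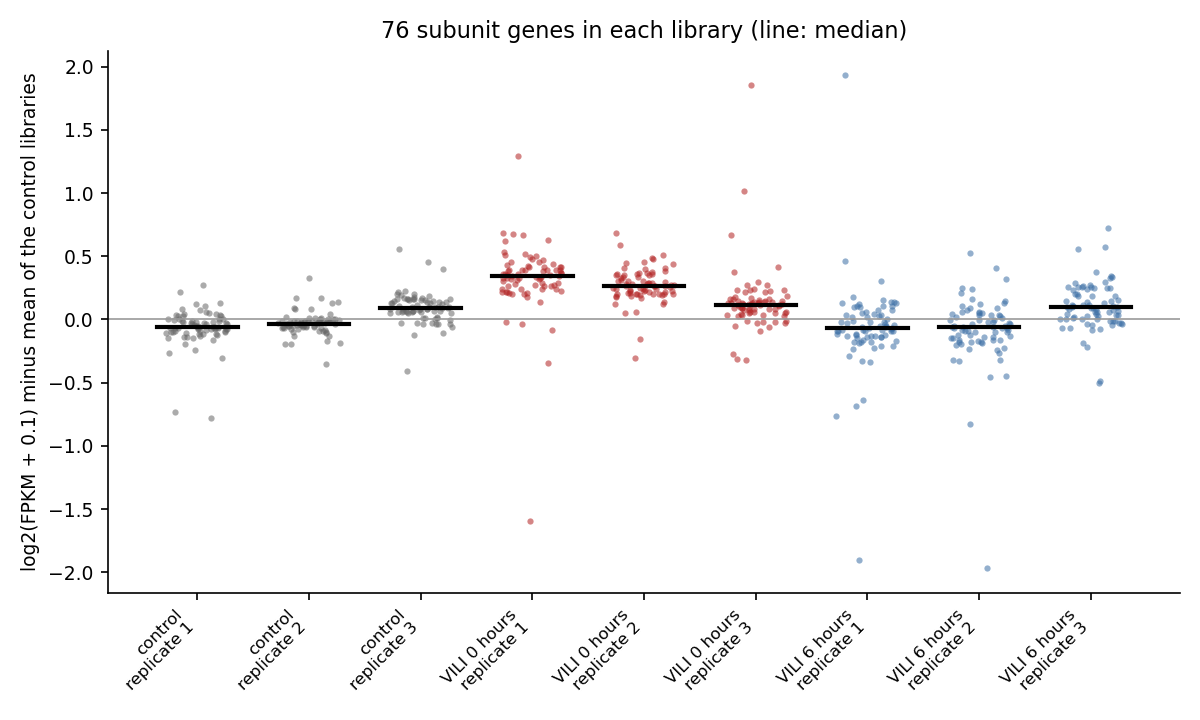
Each point is 1 of the 76 subunit genes in 1 library, on the vertical axis as log2(FPKM + 0.1) minus the mean of the 3 control libraries, and the black line is the median of a library. The medians of VILI 0 hours replicates 1 and 2 lie at 0.34 and 0.27, apart from the other libraries, whose medians lie between -0.07 and 0.12.

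**Figure D2:**
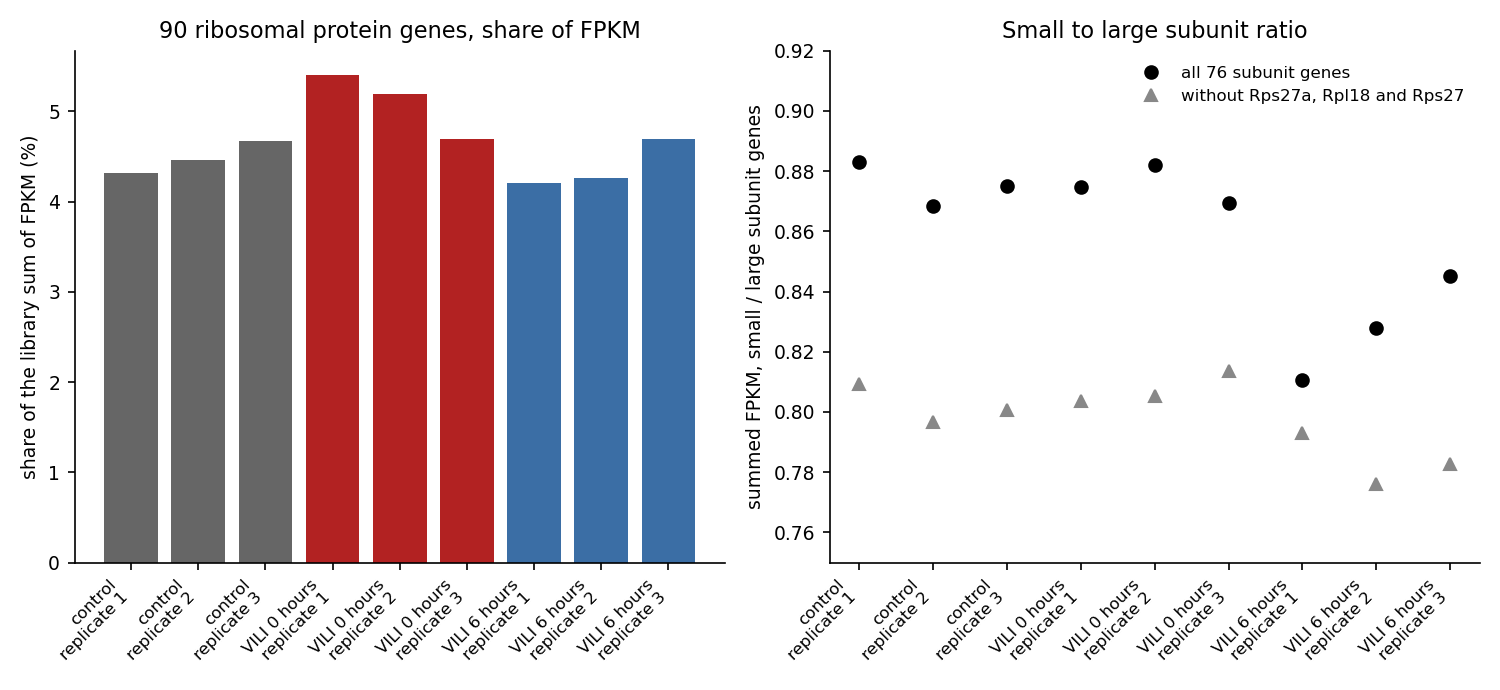
The left bars give the share of each library's summed FPKM held by the 90 members (%), and the right points give the ratio of summed FPKM of small to large subunit genes, with all 76 genes (circles) and without Rps27a, Rpl18 and Rps27 (triangles; the axis starts at 0.75). The share is highest in VILI 0 hours replicates 1 and 2 and the ratio is lowest in the VILI 6 hours libraries.

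VILI 0 hours vs control was tested for each gene with limma, in 1 fit of the 9 libraries, with Benjamini-Hochberg adjustment over all 19378 genes. No member passed an adjusted p of 0.05, a threshold that 55 of all genes (0.284%) passed. By unadjusted P, with the limit of 0.05 that the study used, 30 of the 86 members tested (34.9%) were higher, against 6.81% of all genes, and 1 (1.16%) was lower, against 9.35% of all genes. Of the subunit genes, 73 of 76 had a log2 fold change above 0, as had 40.9% of all genes. Their median was 0.23, a 1.18-fold difference, and the quartiles were 0.18 and 0.30. In 41 of the 76 (53.9%) the lowest VILI 0 hours library was above the highest control library, against 12% of all genes, and in none was the highest VILI 0 hours library below the lowest control library (21.6% of all genes). With 3 libraries against 3, an exact permutation test of 1 gene cannot go below a two-sided p of 0.1.

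The 2 subunits gave similar counts, and a difference between them was not tested. Of the 45 large subunit genes, 43 had a log2 fold change above 0, 17 of them with an unadjusted P under 0.05, and the median was 0.24. Of the 31 small subunit genes, 30 were above 0, 12 of them with an unadjusted P under 0.05, and the median was 0.23. By the same limit 6.81% of all genes were higher. The 12 include Rps12, whose sum with an identical copy was not higher (log2 difference -0.06, described below). The 3 subunit genes below 0 were Rpl15, Rpl13a and Rps27a, named here after their values were seen. No subunit gene with a lower level had an unadjusted P under 0.05.

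The member with the lowest P was Rpl37, which encodes a zinc-binding protein of the large subunit (chr15:5116645-5119140, GRCm38). Its level was 68.8, 74.9 and 80.1 FPKM in the controls, 118, 101 and 99.2 FPKM at VILI 0 hours and 58.9, 71.5 and 74.6 FPKM at VILI 6 hours. All 3 VILI 0 hours libraries lay above the 6 others. The log2 fold change at VILI 0 hours vs control was 0.51 ± 0.12 (SE), with an unadjusted P of 0.00188 and a limma adjusted p of 0.0939.

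Rps29, which encodes a zinc-binding protein of the small subunit and is the most abundant member (chr12:69157722-69159186), showed the same order. It was at 510.2, 532 and 550.2 FPKM in the controls, at 766, 685 and 642 FPKM at VILI 0 hours and at 468, 474 and 504 FPKM at VILI 6 hours. With the libraries as deposited, the 3 groups did not overlap, with VILI 0 hours above and VILI 6 hours below the controls. The order under other scalings is not given here. The log2 fold change at VILI 0 hours was 0.39 ± 0.10, with an unadjusted P of 0.00362 and a limma adjusted p of 0.114.

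Rpl36 of the large subunit (chr17:56613416-56614243) was at 165, 173 and 188 FPKM in the controls, 272, 239.5 and 212 FPKM at VILI 0 hours and 164, 171 and 174 FPKM at VILI 6 hours. Its log2 fold change at VILI 0 hours was 0.45 ± 0.11 (limma adjusted p = 0.0953). Rps9, for a small subunit protein needed early in its assembly, was at 250.4, 245 and 265 FPKM, then 348, 353 and 294 FPKM, then 272, 267 and 272 FPKM, and its log2 fold change at VILI 0 hours was 0.38 ± 0.10 (limma adjusted p = 0.108). Both genes had VILI 0 hours libraries that did not overlap with either other group. Rpl31 of the large subunit was at 149 ± 14.4, 189 ± 6.84 and 151 ± 3.69 FPKM in the 3 groups (SD, n = 3 each), a log2 fold change of 0.34 ± 0.09 at VILI 0 hours.

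Larger fold changes were found in genes whose libraries scattered more. Rpl17 (chr18:74998558-75003381) had a log2 fold change of 0.75 ± 0.25 at VILI 0 hours. Its levels were 82.0, 50.3 and 43.5 FPKM against 27.0, 35.5 and 39.0 FPKM in the controls, with replicate 1 the highest. Rpl7a (chr2:26910764-26913318) had 0.59 ± 0.28. Its levels were 44.1, 36.8 and 63.0 FPKM against 37.5, 34.2 and 23.4 FPKM, and the groups overlapped. Rpl18 had the largest value, 0.82 ± 0.49, which rested mainly on 1 transcript row in replicate 3. The spread within groups was under 0.3 (log2 SD) for 68 of the 76 subunit genes. Among these 68 genes, 66 were above 0 at VILI 0 hours vs control, from -0.21 to 0.51.

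**Figure D3:**
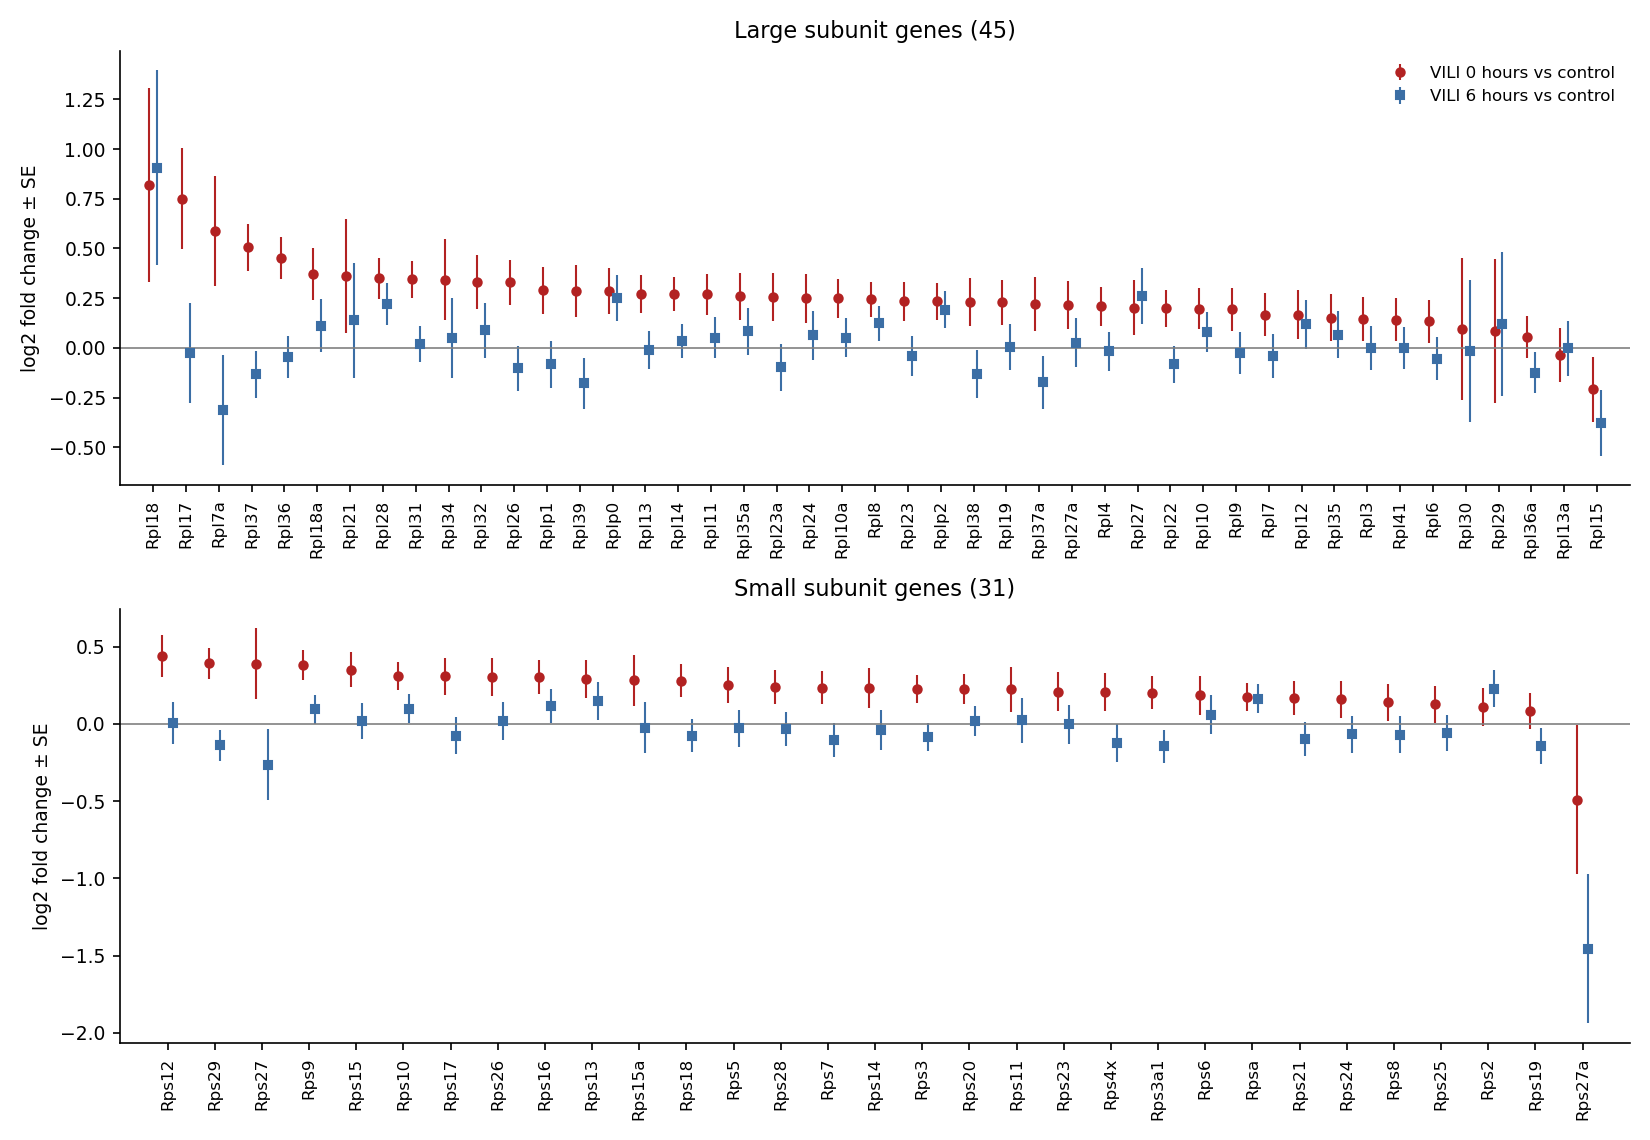
Log2 fold change ± SE against control for each large subunit gene (top) and small subunit gene (bottom), at VILI 0 hours (circles) and VILI 6 hours (squares), ordered by the VILI 0 hours value. Most circles lie between 0.1 and 0.5 while squares scatter about 0, and Rpl18, Rpl29, Rpl30 and Rps27a have the widest bars.

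**Figure D4:**
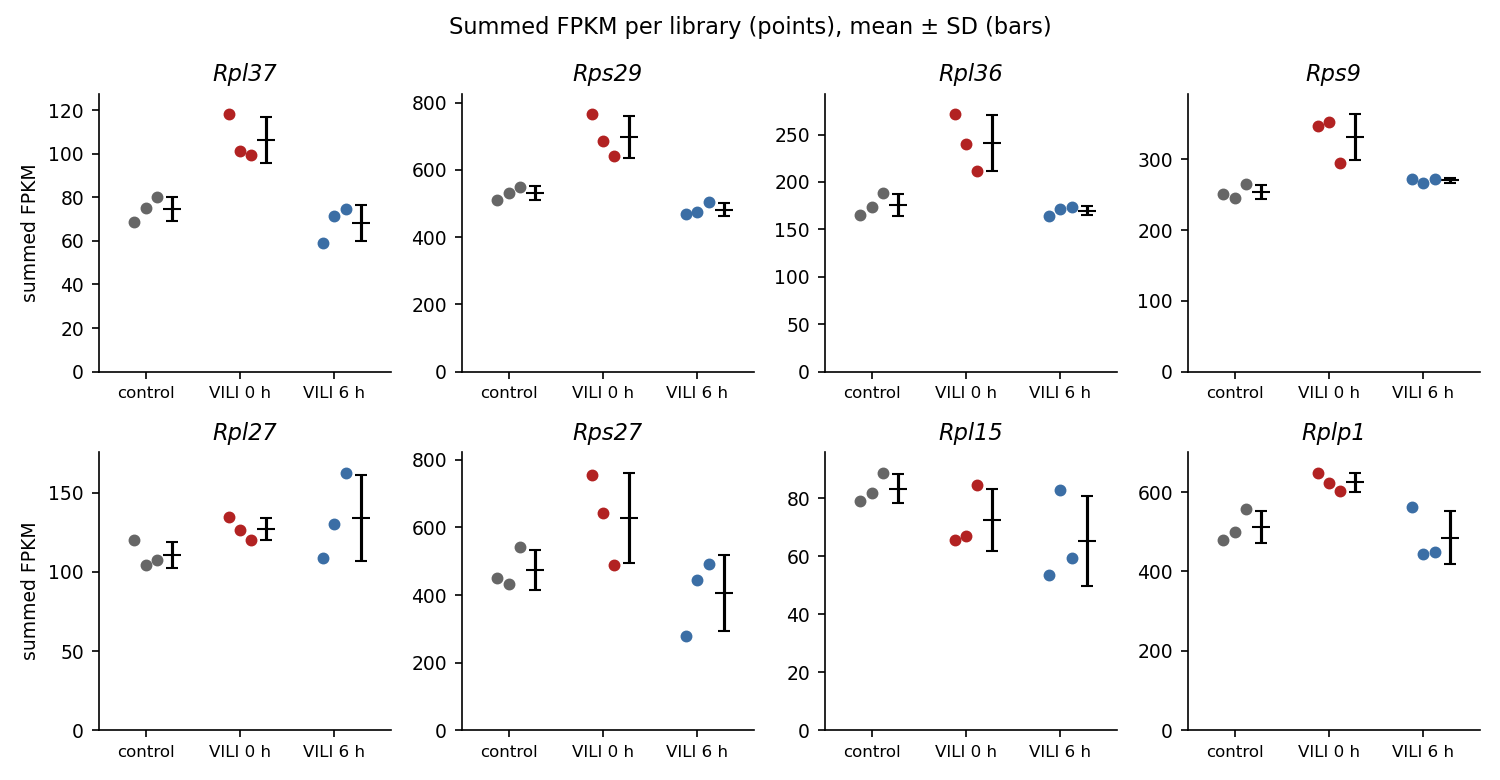
Summed FPKM of 8 members in each library (points) with the mean ± SD of each group (n = 3). For Rpl37, Rps29, Rpl36, Rps9, Rplp1 and Rpl27 the VILI 0 hours points lie above all control points, barely so for Rpl27 (120.3 against 120.1 FPKM), those of Rps27 overlap with the controls, and the means of Rpl15 are lower after VILI.

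At VILI 6 hours vs control the family was divided about evenly. Again no member passed an adjusted p of 0.05 in limma, a threshold that 136 of all genes (0.702%) passed. At an unadjusted P under 0.05, no member was higher, against 8.17% of all genes, and 3 of 86 (3.49%) were lower, against 12.2% of all genes. These 3 were Rps12-ps3, Rps27a and Rpl15. The VILI 6 hours libraries were all above the controls in 8 members (9.3%), against 9.64% of all genes, and all below them in 4 (4.65%), against 15.0% of all genes. Of the 76 subunit genes, 36 had a log2 fold change above 0, as had 40% of all genes, with a median of -0.01 and quartiles of -0.08 and 0.07. Over all genes tested the median was -0.09.

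The scaling of the libraries bore on this comparison. Centring each library on its median moved the median of all genes from -0.07 to 0.05 at VILI 0 hours vs control and from -0.09 to 0.04 at VILI 6 hours vs control. The subunit genes then had a median of 0.35 at VILI 0 hours, with 74 of 76 above 0. Their median at VILI 6 hours became 0.12 with 65 of 76 above 0, and the members with an unadjusted P under 0.05 became 6 higher (6.98%) and 1 lower (1.16%), against 11.7% and 8.46% of all genes in that fit. The side of control on which the family's median lay at 6 hours therefore depended on the scaling, while at VILI 0 hours the median stayed above 0 with the libraries as deposited, centred on their medians (0.35) or scaled to the same sum (0.18).

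The highest value at VILI 6 hours vs control was that of Rpl18 (0.91 ± 0.49, unadjusted P = 0.0961), whose levels are given with its transcript rows, followed by Rpl27, Rplp0, Rps2 and Rpl28. Rplp0, which encodes the base of the stalk of the large subunit, was at 326, 318 and 283 FPKM in the controls, 428, 377 and 329.8 FPKM at VILI 0 hours and 349, 385 and 369 FPKM at VILI 6 hours. Its log2 fold change was 0.25 ± 0.12 at VILI 6 hours and 0.29 ± 0.12 at VILI 0 hours. By its leading transcript row alone Rplp0 was at -0.13 at VILI 6 hours. The other stalk genes lay on different sides of control, with Rplp2 at at 115 ± 2.70, 136 ± 10.4 and 132 ± 9.10 FPKM and Rplp1 at 512 ± 40.5, 625 ± 23.7 and 485 ± 66.7 FPKM (SD, n = 3 each). Rpl27 was at 109, 130.3 and 163 FPKM at VILI 6 hours against 120.1, 104 and 108 FPKM in the controls (0.26 ± 0.14). Rps2, for a small subunit protein near the mRNA entry, was at 236, 175 and 195 FPKM against 172, 169 and 173 FPKM (0.23 ± 0.12). Rpl28 was at 101, 109 and 111 FPKM against 94.4, 91.1 and 90.1 FPKM (0.22 ± 0.10). For Rplp0, Rplp1, Rplp2, Rpl27, Rps2 and Rpl28 the unadjusted P against control at this time was above 0.05.

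Rpl15 had the lowest subunit value after Rps27a. It was at 79.1, 81.9 and 88.8 FPKM in the controls, 65.5, 67.1 and 84.6 FPKM at VILI 0 hours and 53.5, 82.7 and 59.3 FPKM at VILI 6 hours. Its log2 fold change at VILI 6 hours was -0.38 ± 0.17, with an unadjusted P of 0.0469 and a limma adjusted p of 0.239, and 1 VILI 6 hours library lay within the control range. Rpl7a (-0.31 ± 0.28) and Rps27 (-0.26 ± 0.23) came next.

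Between the 2 times, nearly all members were lower at 6 hours. With VILI 6 hours set against VILI 0 hours, no member, and none of all 19378 genes (0.0%), passed an adjusted p of 0.05 in limma. At an unadjusted P under 0.05, 36 of 86 members (41.9%) were lower, against 4.94% of all genes, and no member was higher, against 5.06% of all genes. Of the subunit genes, 71 were below 0, as were 53.7% of all genes, 16 large and 16 small subunit genes with an unadjusted P under 0.05, and the median was -0.23. In 33 of the 76 (43.4%) every VILI 6 hours library was below every VILI 0 hours library, against 6.28% of all genes, and in no member was every VILI 6 hours library above, against 6.25% of all genes. The lowest P belonged to Rpl37 (-0.64 ± 0.12, unadjusted P = 0.000378, limma adjusted p = 0.152) and Rps29 (-0.53 ± 0.10, unadjusted P = 0.00048, limma adjusted p = 0.155). The 5 subunit genes above 0 included Rps2 (0.12 ± 0.12), Rpl18 (0.09 ± 0.49), Rpl27 (0.06 ± 0.14) and Rpl29 (0.04 ± 0.36), each within its SE or close to it. Other low values were -0.78 ± 0.25 for Rpl17, -0.90 ± 0.28 for Rpl7a, -0.65 ± 0.23 for Rps27 and -0.96 ± 0.48 for Rps27a. This comparison shares the VILI 0 hours libraries with the first, so the 2 sets of counts are not separate evidence. Leaving out VILI 6 hours replicate 1 kept the family's direction (median of members -0.20, 32 of 86 lower and none higher at an unadjusted P under 0.05, against 13.9% and 8.55% of all genes in that fit). It brought 3 members (3.49%), Rplp1, Rps29 and Rpl37, under an adjusted p of 0.05 in limma, against 1.84% of all genes.

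The counts depended on single libraries, and so did the shares of all genes. For VILI 0 hours and control, leaving out VILI 0 hours replicate 3 gave 47 members (54.7%) that were higher at an unadjusted P under 0.05, against 5.08% of all genes. Without VILI 0 hours replicate 1 there were 12 higher (14%), against 5.51% of all genes. Without VILI 0 hours replicate 2 there were 15 (17.4%, against 6.13%), and without control replicates 1 or 2 there were 13 and 14 (15.1% and 16.3%, against 5.03% and 4.73%). In these 5 fits at most 1 member was lower, against 5.48 to 8.33% of all genes. The median over the members stayed between 0.18 and 0.30 in these fits. For VILI 6 hours vs VILI 0 hours the count of members lower was 22 without VILI 0 hours replicate 1, 22 without VILI 0 hours replicate 2, and 24 without VILI 6 hours replicate 2 (25.6%, 25.6% and 27.9%, against 5.06%, 3.15% and 4.76% of all genes). For VILI 6 hours vs control 3 members were higher and 3 lower without VILI 0 hours replicate 3, and likewise without VILI 6 hours replicate 1, against 7.74% higher and 10.7% lower of all genes in the former fit and 12.8% and 26% in the latter. Without VILI 6 hours replicate 1, the 5 members passing an adjusted p of 0.05 in limma at VILI 0 hours vs control were Rps9, Rps29, Rpl37, Rpl36 and Rpl31. These are 5.81% of the members, against 6.93% of all genes called in that fit.

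The ratio of small to large subunit FPKM was 0.883, 0.868 and 0.875 in the controls and 0.875, 0.882 and 0.869 at VILI 0 hours. In the VILI 6 hours libraries it was 0.811, 0.828 and 0.845, below every other library. Members with large or scattered values weigh on this ratio, so it was also computed without them, a choice made after the values were seen. Without Rps27a, Rpl18 and Rps27 it was 0.809, 0.797 and 0.801 in the controls, 0.804, 0.805 and 0.814 at VILI 0 hours and 0.793, 0.776 and 0.783 at VILI 6 hours. The VILI 6 hours libraries were still the lowest, and the mean difference from control, -0.0476 with all genes, was smaller.

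In some members the FPKM was divided differently among transcript rows from library to library. The median spread within groups (log2 SD) was 0.14 both for the 32 subunit genes with 1 row and for the 44 with more rows. The table gives no transcript identifiers, so a row is named by its place within its gene. Of the 90 members, 49 had more than 1 row, and Rpl18 had the most, 8. Of the 47 such members with a mean of at least 1 FPKM, 11 had a leading row that differed between libraries, and in none of these 11 was the leading row the same within each group. Of the 185 rows tested, none passed an adjusted p of 0.05 in limma at either time vs control (19 and 28 of 37142 rows, 0.0512% and 0.0754%). At an unadjusted P under 0.05, 35 rows (18.9%) were higher at VILI 0 hours vs control, against 4.72% of all rows, and 4 (2.16%) were lower, against 6.27%. Against control, 6 rows (3.24%) were higher and 5 (2.70%) lower at VILI 6 hours, against 5.75% and 7.5% of all rows. Between the 2 times, 3 rows (1.62%) were higher and 40 (21.6%) lower at VILI 6 hours, against 3.81% and 3.58% of all rows, and 0 passed an adjusted p of 0.05 in limma, as 8 of all rows (0.0215%) did.

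Rps27a, which encodes ubiquitin joined to a small subunit protein, is the clearest case (chr11:29545846-29548109). Its first row was at 96.2, 98.7 and 186 FPKM in the controls, at 0.996, 209 and 195 FPKM at VILI 0 hours and was listed at 0 in all 3 VILI 6 hours libraries. Its second row was at 108, 114 and 0 FPKM in the controls, 65.5, 0 and 13.9 FPKM at VILI 0 hours and 53.7, 51.3 and 142 FPKM at VILI 6 hours. The sum was between 186 and 212 FPKM where the first row was above 1 FPKM, and between 51.3 and 142 FPKM where it was not. The summed log2 fold change of -1.46 ± 0.48 at VILI 6 hours (unadjusted P = 0.0137, limma adjusted p = 0.154) therefore moved together with the switch of rows. Zeros in a table of estimated FPKM can be failed estimates, and this was not tested.

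Rpl18 (chr7:45715457-45720836) had such switches in single libraries of different groups. Its first row was at 214 FPKM in VILI 0 hours replicate 3 and 224 FPKM in VILI 6 hours replicate 1, and between 1.92 and 9.39 FPKM in the 7 other libraries. In those 2 libraries no other row was above 2.15 FPKM, and the summed level was 217 and 228 FPKM against 52.3 to 86.0 FPKM elsewhere. Rpl29 had row 1, row 5 or row 6 in the lead in different libraries of each group, with sums from 60.2 to 166 FPKM. For Rpl10, whose row 3 was at 205, 1.32 and 0.0144 FPKM in the controls and at 239.8, 224 and 186 FPKM at VILI 6 hours, the sums varied much less, from 316 to 407 FPKM. Rpl41 showed a like exchange between rows 1 and 3, with row 1 at 0 in control replicate 2 and sums from 407 to 527 FPKM. Other rows with large differences, or at 0 in a whole group, were each a part of their gene. Row 3 of Rplp0 was at 59.2, 59.7 and 1.20 FPKM in the controls and at 148, 92.6 and 85.3 FPKM at VILI 0 hours. Row 2 of Rpl19 was at 18.6 FPKM in VILI 6 hours replicate 2 and listed at 0 in the other 2 libraries of that group, and row 1 of Rpl21 was listed at 0 in VILI 0 hours replicate 2 alone. Row 1 of Rpl3 was listed at 0 in all controls and reached 10.03 FPKM once, and row 4 of Rpl34 was listed at 0 in all VILI 0 hours libraries against 23.2, 10.6 and 0 FPKM in the controls.

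**Figure D5:**
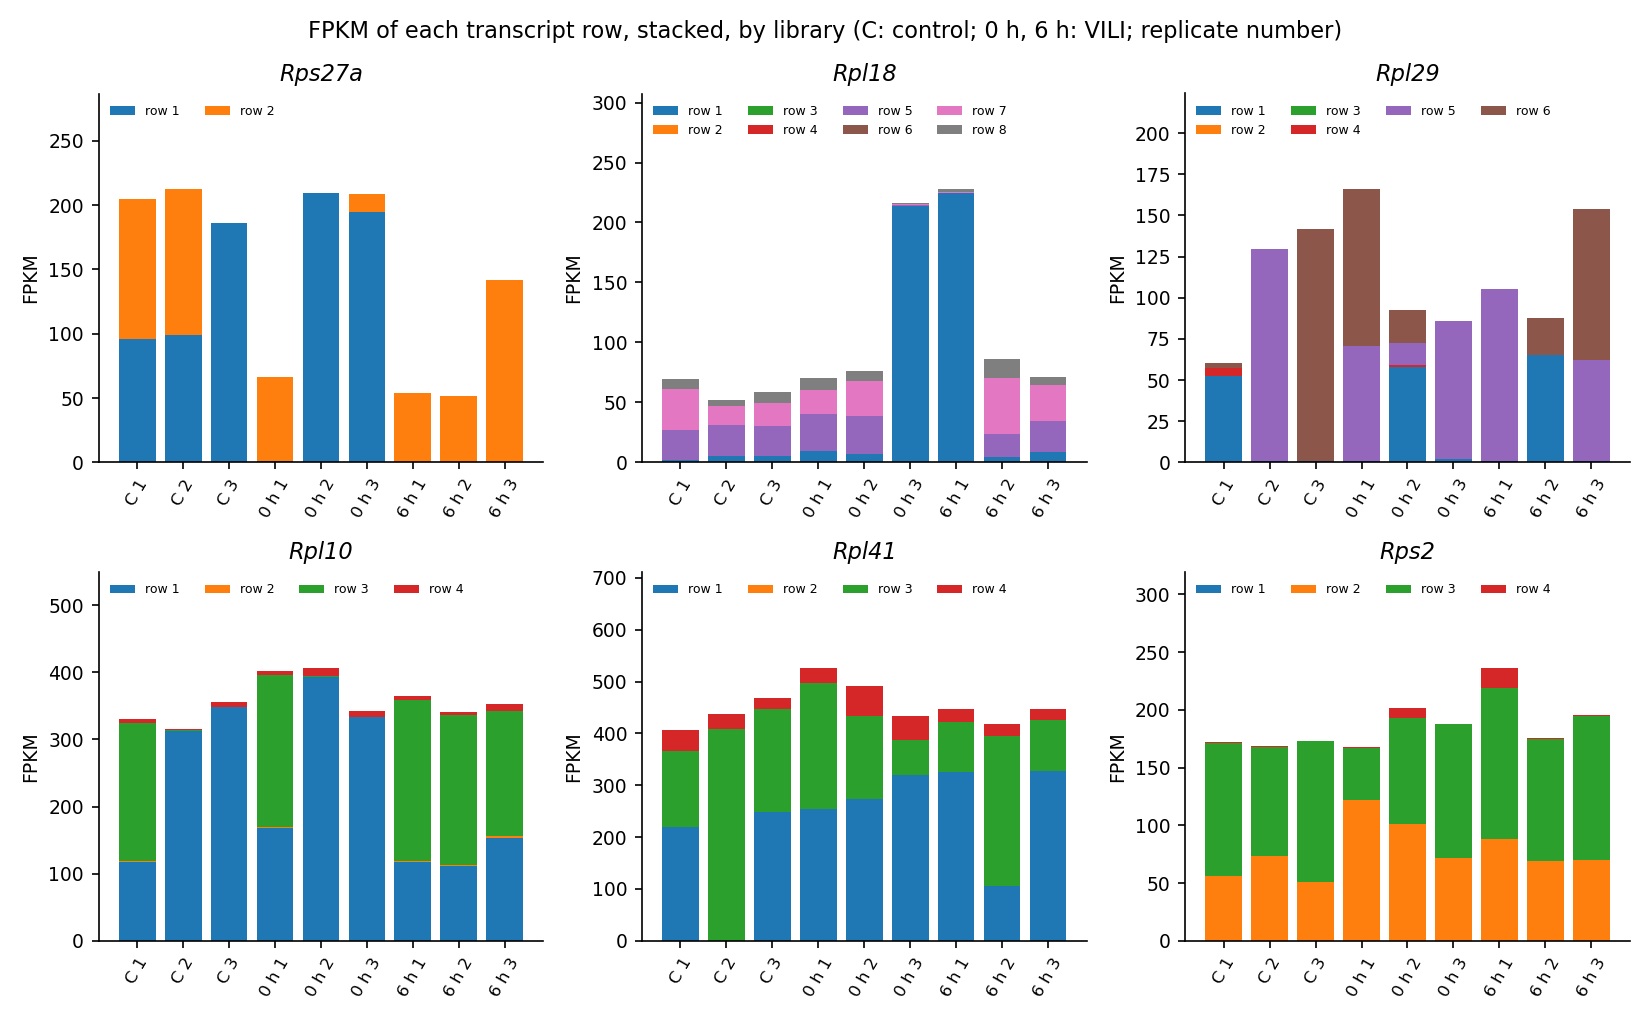
Stacked bars give the FPKM of each transcript row of 6 members in each library, so that the height of a bar is the summed FPKM of the gene. Rows replace each other between libraries of the same group, with a change of the sum for Rps27a, Rpl18 and Rpl29 and smaller differences of the sum for Rpl10, Rpl41 and Rps2.

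Members with near-identical copies were read together with their parent, since reads of identical sequence can be split between copies. The coding sequences of Rps27 and Rps27rt were identical over 252 bases, those of Rps12 and Rps12-ps3 over 396 bases and those of Rpl10 and Rpl10-ps3 over 642 bases. Rpl9 and Rpl9-ps6 differed at 1 of 576 positions. By contrast Rps27l shares 76.2% of its coding positions with Rps27. The first 30 coding bases of the Rps27 family show the copy and the paralogue beside their parent, from GENCODE M21 transcripts, with the 10 bases that differ from Rps27 in capitals.
Rps27 (chr3:90212522-90213651, minus strand): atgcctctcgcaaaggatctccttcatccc
Rps27rt (chr9:114982366-114982739, minus strand): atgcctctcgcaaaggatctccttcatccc
Rps27l (chr9:66946086-66949516, plus strand): atgccCctGgcTaGAgatctGTtAcaCccT

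Rps12 and Rps12-ps3 (chr19:59322290-59322783) lay on different sides of control at VILI 0 hours. Rps12 was at 112, 97.7 and 122 FPKM in the controls and 140.5, 135 and 175 FPKM at VILI 0 hours (0.44 ± 0.14, unadjusted P = 0.0103, limma adjusted p = 0.172). Rps12-ps3 was at 246, 268 and 278 FPKM in the controls and 216, 234 and 177 FPKM at VILI 0 hours (-0.35 ± 0.11, unadjusted P = 0.0133, limma adjusted p = 0.191). Library by library, the one was highest at VILI 0 hours where the other was lowest, in replicate 3. Their sum was 358, 366 and 399.7 FPKM in the controls, 357, 369 and 352 FPKM at VILI 0 hours and 304, 304 and 329 FPKM at VILI 6 hours. The sum thus did not show the higher level of Rps12 at VILI 0 hours and was lower than every control at VILI 6 hours.

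The sums of the other pairs had their highest mean at VILI 0 hours. Rps27 with Rps27rt was at 631 ± 86.4, 826 ± 131 and 555 ± 89.9 FPKM in the 3 groups (SD, n = 3 each). Rpl9 with Rpl9-ps6 was at 272 ± 11.9, 326 ± 20.1 and 272 ± 30.6 FPKM, and Rpl10 with Rpl10-ps3 at 339 ± 19.9, 389 ± 35.7 and 357 ± 12.1 FPKM. Rpl9-ps6 alone had 59.7, 53.1 and 55.7 FPKM in the controls and 95.2, 76.3 and 66.7 FPKM at VILI 0 hours (0.48 ± 0.13, limma adjusted p = 0.114).

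Of the paralogues with sequence of their own, none had an unadjusted P under 0.05 against control at either time. At VILI 6 hours vs VILI 0 hours, Rpl22l1 (-0.31 ± 0.13, unadjusted P = 0.0399) and Rpl3l (-0.99 ± 0.38, unadjusted P = 0.0288) were lower, 2 of the 6 tested in a list that also holds Rps27rt (33.3%, against 4.94% of all genes). Rps27l, a paralogue of Rps27 known as a p53 target, was at 72.6 ± 8.72, 65.5 ± 3.17 and 61.0 ± 6.02 FPKM, with log2 fold changes of -0.14 and -0.25 against control. Rpl22l1 was at 33.7 ± 4.11, 40.5 ± 5.34 and 32.6 ± 2.58 FPKM, and its parent Rpl22 at 47.8 ± 4.68, 54.8 ± 2.02 and 45.1 ± 2.03 FPKM. Rpl7l1, which acts in the assembly of the large subunit, was at 17.4 ± 0.553, 17.2 ± 1.70 and 16.9 ± 1.62 FPKM. Rpl36al was at 75.6, 85.6 and 86.6 FPKM in the controls and 88.2, 93.3 and 88.5 FPKM at VILI 0 hours. Rpl3l, known from heart and skeletal muscle, had means of 0.103, 0.244 and 0.0822 FPKM, near the limit for testing. Rps19bp1 was at 7.08 ± 1.33, 6.09 ± 1.03 and 6.69 ± 1.83 FPKM.

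Fau and Rack1, genes of ribosomal proteins that the name rule misses, gave values on the same side at VILI 0 hours vs control. Fau, a ubiquitin-like fusion with a small subunit protein, was at 224, 203 and 213 FPKM in the controls and 289, 262 and 221 FPKM at VILI 0 hours (0.26). Rack1, a scaffold on the small subunit, had 0.21 ± 0.09 (unadjusted P = 0.0413, limma adjusted p = 0.285). Rack1 had 0.10 at VILI 6 hours vs control.

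Other mRNAs known to carry TOP tracts were counted from a list of 19 translation factors and related genes. At VILI 0 hours vs control 16 of the 19 were above 0, with a median of 0.19. Of these, 5 had an unadjusted P under 0.05, namely Nap1l1 (0.38), Eif3f (0.33), Tpt1 (0.30), Eif4b (0.28) and Eef1b2 (0.19). They are 26.3% of the list, against 6.81% of all genes. Tpt1, a TOP mRNA of very high level, was at 578, 608 and 690.1 FPKM in the controls and 750.3, 769.6 and 779 FPKM at VILI 0 hours. Vim, the intermediate filament gene, was the one that was lower with an unadjusted P under 0.05 (-0.42). The median of the list at VILI 6 hours vs control was 0.03, Eif3f was highest (0.18) and Eif4a2 was lowest (-0.33). No gene of this list passed an adjusted p of 0.05 in limma.

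Ribosome biogenesis genes and hosts of snoRNAs were counted from 2 further lists. Of 26 ribosome biogenesis genes, 6 were above 0 at VILI 0 hours vs control, with a median of -0.10, and Tcof1 (-0.47) and Nop2 (-0.42) were lower with an unadjusted P under 0.05 (7.69%, against 9.35% of all genes). Rrs1 was highest (0.56) and Dkc1 lowest (-0.35) at VILI 6 hours vs control. From VILI 0 hours to VILI 6 hours, 22 of the 26 were above 0, with a median of 0.21, against 5 of the 76 subunit genes. The 6 with an unadjusted P under 0.05 (23.1%, against 5.06% of all genes) were Rrp12 (0.62), Nop58 (0.56), Rrs1 (0.50), Fbl (0.45), Nop2 (0.44) and Ddx21 (0.39). Of 11 snoRNA host genes tested, 9 were above 0 at VILI 0 hours vs control, with a median of 0.18, and Snhg3 (0.41) had an unadjusted P under 0.05 (9.09%, near the 6.81% of all genes). The values ran from -0.50 (Snhg20) to 0.64 (Snhg15) at VILI 6 hours vs control. From VILI 0 hours to VILI 6 hours, 8 of the 11 were below 0, with a median of -0.18, and Snhg3 (-0.35) and Gas5 (-0.22) were lower with an unadjusted P under 0.05 (18.2%, against 4.94% of all genes). Gas5, a host gene with a TOP tract, was at 63.1, 64.0 and 69.5 FPKM in the controls and 72.2, 66.9 and 66.1 FPKM at VILI 0 hours.

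Among 18 genes of mTORC1 and of TOP mRNA control, 9 were above 0 at VILI 0 hours vs control. The 5 with an unadjusted P under 0.05 (27.8%) were all higher, against 6.81% of all genes, and 3 of them encode stress-induced inhibitors of mTORC1. Ddit4 was at 6.75, 6.47 and 6.53 FPKM in the controls, 31.4, 26.9 and 95.3 FPKM at VILI 0 hours and 7.70, 53.4 and 68.9 FPKM at VILI 6 hours (limma adjusted p = 0.133 at VILI 0 hours). Sesn1 had a log2 fold change of 1.37 ± 0.38 and Sesn2 of 0.99 ± 0.27 at VILI 0 hours. The other 2 were Deptor, an inhibitor within the complex (0.38), and Eif4ebp1, a repressor of cap-dependent translation (0.35 at VILI 0 hours, 0.71 at VILI 6 hours). Mlst8, a subunit of the complex, had the lowest value at VILI 6 hours vs control (-0.76). Larp1 was at 25.2, 23.3 and 20.9 FPKM in the controls and 25.2, 20.1 and 20.8 FPKM at VILI 0 hours. Of 8 genes of Myc and its partners, Max (0.31), the partner of Myc, and Mxd1 (1.68) and Mxd4, which oppose Myc at shared sites, were higher and Mycn (-1.35) lower at VILI 0 hours vs control with an unadjusted P under 0.05 (37.5% and 12.5%, against 6.81% and 9.35% of all genes). Mxd4 was at 53.4, 54.9 and 54.5 FPKM in the controls and 113, 103 and 109 FPKM at VILI 0 hours. Myc was at 2.55, 2.70 and 1.78 FPKM in the controls, 4.97, 3.41 and 2.18 FPKM at VILI 0 hours and 3.23, 6.20 and 11.01 FPKM at VILI 6 hours. No gene of these lists passed an adjusted p of 0.05 in limma.

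Neutrophil markers were higher after ventilation, and other marker lists varied between libraries. The summed level of 7 neutrophil markers was 48.5 to 56.8 FPKM in the controls, 559.6 to 1022 FPKM at VILI 0 hours and 467 to 1935 FPKM at VILI 6 hours. At the 2 times vs control, 6 and 7 of the 7 passed an adjusted p of 0.05 in limma, as did 0.284% and 0.702% of all genes. Erythroid markers (5 genes) summed to 3225 to 4182 FPKM in the controls, 4915 to 5419 FPKM at VILI 0 hours and 489, 3454 and 3867 FPKM at VILI 6 hours, so that replicate 1 stood apart, and none of the 5 had an unadjusted P under 0.05 against control. At VILI 6 hours vs VILI 0 hours, 3 of the 5 (60%) were lower with an unadjusted P under 0.05, against 4.94% of all genes. In the same order of groups, B cell markers (4 in the table) summed to 41.1 to 54.5, 17.5 to 56.0 and 11.4 to 34.2 FPKM. By the same limit, 1 of the 4 was lower at VILI 0 hours vs control, 3 at VILI 6 hours vs control and 1 between the times. These are 25%, 75% and 25%, against 9.35%, 12.2% and 4.94% of all genes. Macrophage markers (5 genes) summed to 209 to 288, 328 to 409 and 222 to 629 FPKM. By that limit, 2 of the 5 were higher at VILI 0 hours vs control, 1 was higher at VILI 6 hours vs control and 1 was lower between the times. These are 40%, 20% and 20%, against 6.81%, 8.17% and 4.94% of all genes. T cell markers (5 in the table) summed to 14.4 to 19.7, 13.4 to 25.8 and 7.15 to 19.3 FPKM, and cardiac muscle markers (5 genes) to 129 to 151, 124 to 271 and 135 to 163 FPKM, and no gene of either list had an unadjusted P under 0.05 in any comparison. No marker in the table was at 0 in every library. The part of these cells in the levels of ribosomal protein genes was not tested.

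Transcript length and level were set beside the result, since subunit genes are short and abundant. Among coding genes that are no members, the median log2 fold change at VILI 0 hours vs control was 0.00 for 967 genes under 1000 bases, -0.04 for 6515 genes of 1000 to under 3000 bases and -0.09 for 7756 longer genes. For 352 such genes with a mean of at least 100 FPKM it was 0.09, and for the 49 of these under 1000 bases 0.14, with 31 of the 49 above 0. The median for these 49 genes was -0.12 at VILI 6 hours vs VILI 0 hours. The abundant genes thus lay on the same side as the subunit genes in both comparisons, by less, and the part of length and level in the result was not tested.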

How the data were processed

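Whole lungs of 9 C57BL/6 mice (3 control, 3 VILI 0 hours, 3 VILI 6 hours) were sequenced as bulk RNA. Per the submitters' processing notes the authors used Bowtie2 2.0.6, TopHat2 2.0.9 and Cuffdiff 2.1.1 with GRCm38, and the deposited values are FPKM per transcript row, with gene identifiers but no transcript identifiers. The methods describe ribosomal RNA depletion and transcript assembly. FPKM divides by length and by the mapped total, so each value is relative to its library, and no read counts were used.

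Identifiers were matched to GENCODE M21, and the rows of a gene were summed. Values were tested as log2(FPKM + 0.1) with limma 3.58.1 in R 4.3.3, over 19378 genes with a mean of at least 0.1 FPKM, in 1 fit of the 9 libraries with a trended variance and Benjamini-Hochberg adjustment over all genes. Fold changes on this scale understate those of low genes. Rows were tested likewise (37142 rows). Called means an adjusted p under 0.05, and the unadjusted P of 0.05 stands beside it as the study's threshold. Counts of members are descriptions, set beside the share of all genes in the same fit, or its range over fits. The script was tested on simulated data. Alternatives were another pseudocount (0.01 and 1), a minimum mean of 1 FPKM or none, 2 scalings, the 6 libraries compared alone, a replicate block, no trend, array weights, the leading row of each gene, and each library left out.

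The text names the 5 members with the highest and the 3 with the lowest mean above 0, any called, the 5 highest and 5 lowest log2 fold changes per comparison among members with a mean of at least 1 FPKM, paralogues with their parents, the 5 rows of largest change per comparison and rows at 0 in a whole group, and the highest and lowest gene of each related list at VILI 6 hours vs control. Other named genes, such as those with the lowest P and the stalk genes, were chosen after values were seen. Members and lists were chosen with earlier results of these data known. Sequences on chromosome 18 are not shown. Figures and sums used Python 3.11.15, numpy 2.4.6, pandas 2.3.3, matplotlib 3.10.9 and Biopython 1.88. The labels name no litter or run, so the part of either in the differences was not tested. The p-values rest on the spread between libraries within groups, shared over the 3 groups in 1 fit with a trended variance. The result for 1 listed gene is not reported here.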

Additional observations from a re-analysis of the deposited data

Results flagged for a closer look

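Rps29 drew attention because, with the libraries as deposited, both times after ventilation lay on opposite sides of the control range. All 3 VILI 0 hours libraries (642 to 766 FPKM) were above the highest control (550.2 FPKM), and all 3 VILI 6 hours libraries (468 to 504 FPKM) were below the lowest control (510.2 FPKM). The difference between the times was itself tested in limma, with a log2 fold change of -0.53 ± 0.10 (unadjusted P = 0.00048, adjusted p = 0.155), so it did not pass the adjusted threshold. The difference at VILI 6 hours vs control was -0.14 ± 0.10 (unadjusted P = 0.204, limma adjusted p = 0.448). Centring each library on its median moved the median of all genes in that comparison from -0.09 to 0.04. The side of control on which Rps29 lay at 6 hours can therefore depend on the scaling, and its value under that scaling is not given here.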

How the results depend on the processing

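The median of the members stayed above 0 at VILI 0 hours vs control and below 0 at VILI 6 hours vs VILI 0 hours under every alternative run, and the cause of the changes listed here was not tested. At VILI 6 hours vs control the median turned to 0.10 with libraries centred on their medians, which also gave 0.35 at VILI 0 hours. Members called were 4 (4.65%, against 8.24% of all genes) at VILI 0 hours when the 6 libraries compared were fitted alone. With array weights, whose estimation did not converge, members called were 12 at VILI 0 hours and 31 at VILI 6 hours vs control, and 51 at VILI 6 hours vs VILI 0 hours. These are 14%, 36% and 59.3% of members, against 13.2%, 57.6% and 26.6% of all genes, so only the last lies clearly above the share of all genes. Members with an unadjusted P under 0.05 were 18 with libraries scaled to the same sum and 19 without a trend at VILI 0 hours vs control (17 and 18 of them higher, 19.8% and 20.9%, against 5.26% and 6.18% of all genes). At VILI 6 hours vs control they were 7 after median centring and 35 with array weights (6 and 9 higher, 1 and 26 lower, against 11.7% and 24% higher and 8.46% and 38.7% lower of all genes), and at VILI 6 hours vs VILI 0 hours 20 and 61 (all lower, 23.3% and 70.9%, against 5.08% and 22.3%). Rows called were 1 with the 6 libraries alone at either time vs control, and with array weights 2 at VILI 0 hours and 3 at VILI 6 hours (of 185, against 0.977%, 0.108%, 1.19% and 6.88% of all rows). Rows with an unadjusted P under 0.05 at VILI 0 hours were 63 after median centring and 18 without a trend, at VILI 6 hours vs control 26 with array weights, and at VILI 6 hours vs VILI 0 hours 21 without a trend (in the same order 61 higher, 15 higher, 14 lower and 19 lower, or 33%, 8.11%, 7.57% and 10.3%, against 7.47%, 4.18%, 16.4% and 3.13% of all rows).

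With each library left out in turn, medians ranged from 0.18 to 0.30 at VILI 0 hours vs control, -0.08 to 0.04 at VILI 6 hours vs control and -0.30 to -0.20 at VILI 6 hours vs VILI 0 hours. Members called ranged over 0 to 5, 0 to 1 and 0 to 3, and members with an unadjusted P under 0.05 over 13 to 47, 2 to 6 and 22 to 46, in the same order. The shares of all genes ranged over 0.00516 to 6.93%, 0 to 23.3% and 0 to 1.84% called and, by unadjusted P, 4.73 to 8.98% higher at VILI 0 hours vs control, 5.59 to 12.8% higher and 7.13 to 26% lower at VILI 6 hours vs control, and 3.15 to 13.9% lower at VILI 6 hours vs VILI 0 hours. The call at VILI 6 hours vs control was Rpl27 without VILI 6 hours replicate 1 (log2 fold change 0.40). Share differences ranged over 0.455 to 0.809, -0.256 to -0.00700 and -0.912 to -0.557 percentage points. Rows called ranged over 0 to 1, 0 to 4 and 0 to 1, against 0.0296 to 1.04%, 0.0458 to 5.62% and 0.0108 to 0.412% of all rows. The 4 rows, called without VILI 6 hours replicate 1, are 2.16%, below the 5.62% of all rows in that fit. Rows with an unadjusted P under 0.05 ranged over 22 to 57, 6 to 17 and 33 to 54, against 7.51 to 14.5%, 9.08 to 24.3% and 5.63 to 14.3% of all rows.

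At VILI 6 hours vs control, where most members lay near 0, 37 of 86 were above 0, and 71 after median centring. Of the 5 highest and 5 lowest members of each comparison, 7 turned sign under some alternative. Rps27a at VILI 0 hours vs control ranged from -0.77 to 0.059 with each library left out, the latter without VILI 0 hours replicate 1, and Rplp0 at VILI 6 hours vs control was -0.13 by its leading row. The remaining ones of these turned at VILI 6 hours vs VILI 0 hours. Array weights gave -0.11 for Rps2, -0.25 for Rps19bp1, -0.44 for Rpl18 and -0.16 for Rpl29, and the leading row gave -0.20 for Rpl18 and -2.32 for Rpl29. With each library left out, Rpl18 ranged from -0.43 to 0.60 (below 0 without VILI 0 hours replicates 1 or 2 or VILI 6 hours replicate 1), Rpl29 from -0.19 to 0.33, Rps19bp1 from -0.071 to 0.33 and Rpl27 from -0.091 to 0.20.

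Replicate numbers recur across groups, but same-numbered libraries did not deviate together (correlations from -0.22 to 0.02). Differently numbered libraries had correlations from -0.12 to 0.17. With 3 libraries per group such correlations cannot decide whether same-numbered samples share a run or a day, and the labels give only the number. With the number as a replicate block, members with an unadjusted P under 0.05 were 21, 4 and 28 (20 higher, 4 lower and 28 lower, 23.3%, 4.65% and 32.6%, against 6.16%, 10.5% and 4.16% of all genes), rows 34, 13 and 40 (30 higher, 7 higher and 35 lower, or 16.2%, 3.78% and 18.9%, against 4.33%, 5.31% and 3.19% of all rows), and none was called. The table gives FPKM without counts, so no counting error is given, and 3 mice per group limit the precision.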

Other observations

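Other gene families of the protein and energy economy, chosen after values were seen, did not all share the order of the cytosolic ribosomal protein genes. Of 78 mitochondrial ribosomal protein genes, 31 were above 0 at VILI 0 hours vs control, with a median of -0.04, and 0 higher and 2 lower (2.56%) had an unadjusted P under 0.05 in limma, against 6.81% and 9.35% of all genes. Of 76 nuclear genes of oxidative phosphorylation tested, 58 were above 0 at VILI 0 hours vs control (median 0.11, 9 or 11.8% higher with an unadjusted P under 0.05, against 6.81% of all genes), 26 at VILI 6 hours vs control (median -0.08) and 8 at VILI 6 hours vs VILI 0 hours (median -0.15, 12 or 15.8% lower with an unadjusted P under 0.05, against 4.94% of all genes). Of 38 proteasome subunit genes, 27 were above 0 at VILI 0 hours vs control (median 0.05), and at VILI 6 hours vs control 5 (13.2%) were higher with P below the same limit, against 8.17% of all genes. No gene of these 3 families passed an adjusted p of 0.05 in limma in any comparison.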
